A study of Mus musculus with 44 samples.

Results

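The transcripts of 9 mouse genes that turn cAMP and calcium signals into transcription were followed in the dorsal hippocampus: Creb1, Crem and Atf1, Crtc1, Crtc2 and Crtc3, Crebbp and Ep300, and Sik1. The genes were taken by symbol, each symbol was matched to 1 gene identifier, and these were 9 of the 27179 genes counted in every library. All 9 passed the filter on low counts in every comparison. The 36 libraries each came from 1 mouse, in 6 groups of 6, and each group held 3 mice labelled male and 3 labelled female. WT mice were compared with Kdm5bDARID/DARID littermates (mutant), in which the allele removes the ARID domain and part of the JmjN domain of the histone demethylase KDM5B as a germline change. Both genotypes were on a mixed C57BL/6J and 129S2/Sv F2 background, and were taken from the home cage (0 h) or at 1 h or 3 h after contextual fear conditioning, which pairs a chamber with foot shocks. The mice were young adults, per the study's methods.

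CREB1, CREM and ATF1 are closely related leucine zipper proteins that bind the cAMP response element, or CRE. Kinases activated by cAMP or calcium phosphorylate a serine in these factors, and the phosphorylated site recruits the acetyltransferases CREBBP (CBP) and EP300 (p300). CRTC proteins are a second route: when dephosphorylated they enter the nucleus and bind the leucine zipper, and the salt-inducible kinases, among them SIK1, phosphorylate them and hold them in the cytoplasm. In the hippocampus this pathway is known for its part in long-term memory and for inducing immediate early genes after training. Much of its regulation lies in phosphorylation and protein location, which transcript counts do not measure.

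Promoter sequences from RefSeq (GRCm38.p6, 250 bases before to 50 after the annotated start) were held for 6 of the 9 genes, Creb1, Atf1, Crtc1, Crtc3, Crebbp and Ep300, and not for Sik1, Crem and Crtc2. The search used the full CRE, TGACGTCA, and its core motif, TGACG, both read on either strand, and the core motif is also part of the full CRE. No promoter of these 6 held the full CRE, which 1.79% of all 32851 promoters in the table held. The core motif was found in 1 of these 6, and in 20.8% of all promoters. Shown are Creb1 (chr1:64532554-64532853, plus strand), whose transcript rose after training, and Atf1 (chr15:100227609-100227908, plus strand), the single member with a core motif, given in capitals and starting 90 bases before the start. A match describes letters in this window and is not a measured binding site.
Creb1: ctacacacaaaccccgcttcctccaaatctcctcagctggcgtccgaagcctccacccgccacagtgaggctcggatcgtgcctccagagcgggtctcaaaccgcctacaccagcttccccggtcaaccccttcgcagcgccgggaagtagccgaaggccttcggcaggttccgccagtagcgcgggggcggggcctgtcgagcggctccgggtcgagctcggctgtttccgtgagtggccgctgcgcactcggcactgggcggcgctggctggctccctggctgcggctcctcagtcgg
Atf1: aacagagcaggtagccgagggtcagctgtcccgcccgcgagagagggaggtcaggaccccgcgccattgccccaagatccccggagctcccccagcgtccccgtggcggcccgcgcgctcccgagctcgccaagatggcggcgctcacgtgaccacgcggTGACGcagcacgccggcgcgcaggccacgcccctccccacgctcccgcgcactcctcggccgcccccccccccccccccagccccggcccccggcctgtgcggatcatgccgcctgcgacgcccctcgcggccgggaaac
For comparison, 15 of 18 known CREB target genes used further on had a promoter entry, of which 4 held the full CRE (Dusp1, Pcsk1, Scg2 and Sst) and 14 held a core motif. These targets were counted by gene, over any promoter entry of the gene, whereas the shares of all promoters are by promoter. The list was chosen for known regulation by CREB, with earlier results of these data known.

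The libraries held 40274435 to 107000233 counts, and the lowest count of any member in a library was 382, for Sik1. In 2 libraries the sex-linked transcripts went against the label. Xist, which is transcribed from the inactive X, had 51186 counts in the library labelled WT 1 h male 1, where Y-linked genes had 0, and 36 in the library labelled mutant 3 h female 2, where they had 10239. Both were kept under their labels, and several values of the members are given with and without them. Whether the 2 libraries had been exchanged was not tested. Kdm5b itself had 88.7 ± 4.14 CPM (counts scaled to library size, SD, n = 18) in WT and 83.8 ± 4.83 (n = 18) in mutants. The allele removes only some exons, so a count over the whole gene does not check the genotype. Among libraries of their own group, WT 1 h male 1 was the lowest in Kdm5b at 79.6 CPM (others 90.0 to 97.1), and mutant 3 h female 2 the highest at 93.6 (others 77.5 to 86.2). Markers of the hippocampal fields and of neurons were detected in every library, with a sum of 573.8 to 1001.5 CPM over 4 CA1 genes. Markers of the choroid plexus, next to the hippocampus, ran from 40.9 to 7731 CPM over 4 genes. In bulk tissue, fewer cells of a type and less RNA per cell cannot be told apart.

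Scaled by length, Crtc1 stood apart as the most abundant of the 9 transcripts (plot of length-scaled levels). Its level was 26.4 ± 2.34 CPM per kb of exon (SD, n = 36), 3.94-fold above the next gene, Ep300, and the 2 ranges did not overlap. CRTC1 is the family member known as the neuronal CRTC. The other 8 genes lay within 2.49 to 6.70 CPM per kb, in the order Ep300 (6.70 ± 0.453), Crtc2 (5.97 ± 0.414), Creb1 (4.97 ± 0.292), Crebbp (4.86 ± 0.345), Atf1 (3.70 ± 0.344), Crtc3 (2.83 ± 0.177), Sik1 (2.72 ± 1.10) and Crem (2.49 ± 0.236). Every neighbouring pair below Crtc1 overlapped in range. Within single libraries, Creb1 was above Crebbp in 20 of 36, Crtc3 above Sik1 in 18 and Sik1 above Crem in 21, so these neighbours could not be ordered, whereas Atf1 was above Crtc3 in 36 of 36. Lengths are unions of annotated exons, and a gene with long, rarely used exons, as in the 13.7 kb of Creb1, appears lower on this scale.

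**Figure D1:**
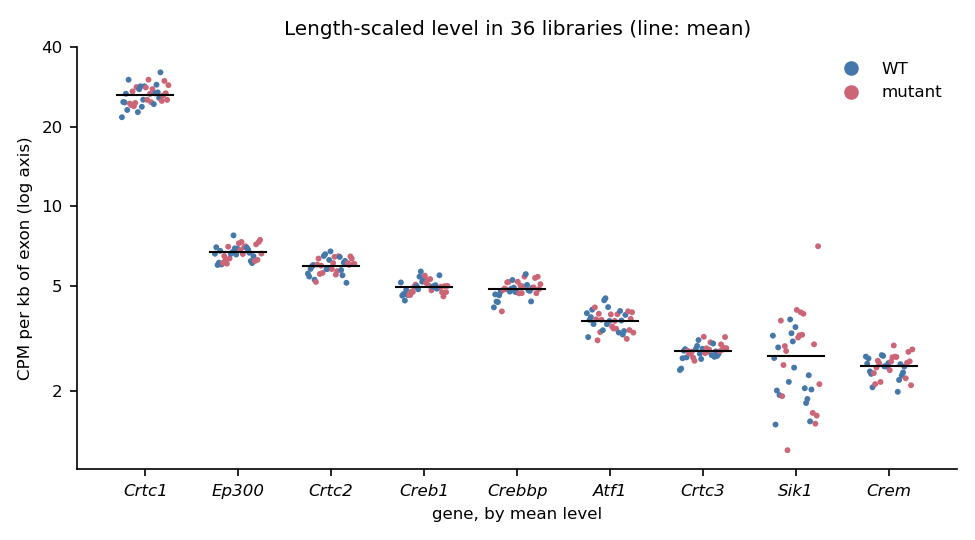
Level of the 9 genes in CPM per kb of exon on a log axis, 1 point per library coloured by genotype, 36 per gene, with the mean as a line. Crtc1 lies above all other genes at a mean of 26.4, and Sik1 has the widest spread.

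All levels from here on are in CPM, and each is compared only with the same gene in other libraries. The steadiest transcript was Creb1, with a coefficient of variation of 5.88% over 36 libraries, and the other genes apart from Sik1 lay between 6.24% and 9.48%. Sik1 had 40.4%, from 6.16 CPM in mutant 0 h female 3 to 36.3 in mutant 3 h female 2. Differences between groups are log2 fold changes with their standard error (SE) from edgeR, adjusted over all genes tested, and a gene is said to have risen or fallen only where the adjusted p was under 0.05.

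**Figure D2:**
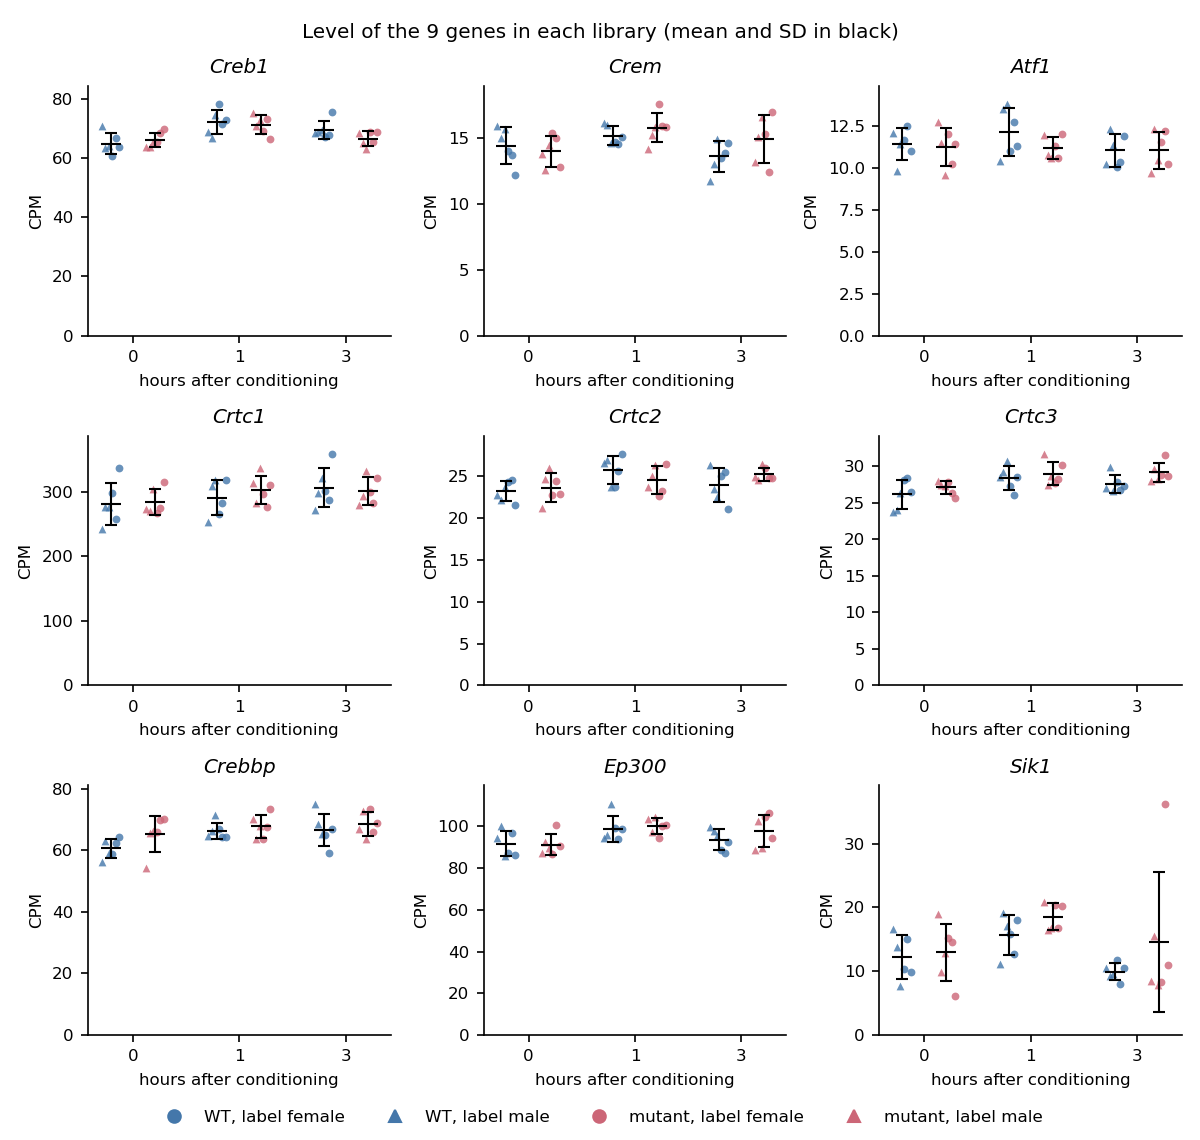
CPM of each gene in each library by hours after conditioning, with WT in blue, mutant in red, circles for libraries labelled female and triangles for male, and the mean and SD of 6 libraries in black. All axes start at 0, where 8 of the 9 genes are nearly level and Sik1 varies, with 1 mutant library at 36.3 CPM at 3 h.

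Among the transcription factors, Creb1 rose 1 h after conditioning and was the only one of the 9 genes to pass the test in any comparison. Creb1 (gene identifier 12912, chr1:64532794-64604548, plus strand) encodes the founding member of the family. In WT it ran from 60.6 to 70.9 CPM at 0 h (median 63.9), from 66.8 to 77.99 at 1 h (median 72.05) and from 67.2 to 75.5 at 3 h (median 68.5). In mutants it ran from 63.6 to 69.6 CPM at 0 h (median 65.4), from 66.2 to 75.2 at 1 h (median 71.6) and from 62.8 to 68.8 at 3 h (median 66.7). The 1 h libraries were high in both genotypes, with all 12 above the 0 h mean and 7 above every 0 h library, though the groups overlapped. With both genotypes in 1 fit the 1 h level was 9.40% higher (log2 fold change 0.13, SE 0.029, adjusted p = 0.0130). Of all 18186 genes tested in this fit, 1.28% were called. The difference was 0.15 (SE 0.049, unadjusted p = 0.0104) in WT alone and 0.11 (SE 0.040, unadjusted p = 0.0199) in mutants alone, and neither was called by edgeR. From 1 h to 3 h Creb1 changed by -0.075 (SE 0.029, unadjusted p = 0.0125, adjusted p = 0.288), and at 3 h its difference from 0 h was 0.055 (SE 0.029, adjusted p = 0.346). The call at 1 h was kept in all 43 alternatives, with log2 fold changes of 0.12 to 0.14 and adjusted p of 0.00271 to 0.0404. Of 12 marker lists, that of CA1 pyramidal cells had all 4 genes positive at 1 h, with 2 of them under an unadjusted p of 0.05. Their summed median was 716.5 CPM at 0 h and 803.5 at 1 h in WT, with 703.6 and 780.1 in mutants, and for 4 dentate granule cell markers the WT medians were 239.2 CPM at 0 h and 259.5 at 1 h and the mutant medians 240.0 and 268.9, with 2 of 4 genes positive over both genotypes. All 4 choroid plexus markers and all 4 striatum markers were negative at 1 h, with 0 and 2 of them under an unadjusted p of 0.05, and the median choroid plexus sum was 2036 CPM at 0 h and 1009 at 1 h in WT, against 183.7 and 117.8 in mutants. The part of any of these in the Creb1 difference was not tested.

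Crem (12916, on chromosome 18) encodes both activators and repressors, including the inducible early repressor ICER from an internal promoter. RefSeq lists 62 transcripts for it, and a count over the gene cannot separate ICER from the long forms. In WT it ran from 12.2 to 16.0 CPM at 0 h (median 14.5), 14.6 to 16.2 at 1 h (14.9) and 11.7 to 14.9 at 3 h (13.7). In mutants it ran from 12.6 to 15.4 CPM at 0 h (median 14.2), 14.2 to 17.6 at 1 h (15.9) and 12.4 to 17.0 at 3 h (15.2). At 1 h, 11 of 12 libraries lay above the 0 h mean, and the groups overlapped. Neither step was called: the difference was 0.12 (SE 0.054) from 0 h to 1 h, with an adjusted p of 0.306, and -0.12 (SE 0.054) from 1 h to 3 h, with an adjusted p of 0.403. In mutants alone the first was 0.17 (SE 0.065, unadjusted p = 0.0203), and in WT alone the second was -0.16 (SE 0.067, unadjusted p = 0.0329). The WT mean went from 14.4 CPM at 0 h to 15.2 at 1 h, and the mutant mean from 15.8 at 1 h to 14.95 at 3 h. Neither of these had an unadjusted p under 0.05. The annotation places Gm6225 across Crem, and reads there may be shared. Atf1 (11908, chr15:100227859-100261248), the third activator of the family, ran from 9.54 to 13.8 CPM over 36 libraries. Its 1 h difference was 0.041 (SE 0.056, unadjusted p = 0.468), or 0.014 without WT 1 h male 3, with 5 of 12 libraries above the 0 h mean.

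The CRTC coactivators showed small differences that were not called. Crtc1 (382056, chr8:70382352-70439702) had mean levels of 281.5, 291.3 and 306.8 CPM in WT and 284.2, 303.0 and 301.5 in mutants at 0, 1 and 3 h, with SDs of 20.4 to 32.7. Its difference from 0 h was 0.072 (SE 0.050, unadjusted p = 0.156) at 1 h and 0.10 (SE 0.050, unadjusted p = 0.0411, adjusted p = 0.288) at 3 h. Crtc2 (74343, chr3:90253858-90264125), studied mostly in liver metabolism, had 23.2 ± 1.18 CPM in WT at 0 h, 25.7 ± 1.67 at 1 h and 24.01 ± 2.01 at 3 h (SD, n = 6). In mutants it had 23.7 ± 1.70 CPM at 0 h, 24.6 ± 1.64 at 1 h and 25.3 ± 0.773 at 3 h. Its 1 h difference was 0.10 (SE 0.040, unadjusted p = 0.0149, adjusted p = 0.237), and 0.14 (SE 0.057, unadjusted p = 0.0244) in WT alone. In mutants alone its unadjusted p was not under 0.05. Crtc3 (70461, chr7:80586627-80688948) was higher at both times: 0.11 (SE 0.033, unadjusted p = 0.00237, adjusted p = 0.0982) at 1 h and 0.090 (SE 0.033, unadjusted p = 0.0100, adjusted p = 0.144) at 3 h, with 11 of 12 libraries above the 0 h mean each time. Both comparisons use the same 0 h libraries. In mutants, 5 of the 6 Crtc3 values at 3 h lay above every 0 h value (0.10, SE 0.046, unadjusted p = 0.04). In WT alone its unadjusted p at 3 h was not under 0.05. Gm15880 and Gm44931 overlap Crtc3.

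The acetyltransferases were also higher at 1 h without a call. Ep300 (328572, chr15:81586209-81652077) had 91.8 ± 6.15 CPM at 0 h and 98.8 ± 6.30 at 1 h in WT, and in mutants 91.3 ± 5.04 and 100.2 ± 3.86 (SD, n = 6), with all 12 libraries at 1 h above the 0 h mean. The difference over both genotypes was 0.12 (SE 0.035, unadjusted p = 0.00162, adjusted p = 0.0808), and 0.13 (SE 0.043, unadjusted p = 0.00788) in mutants alone. In WT alone its unadjusted p was not under 0.05. DESeq2 called the difference over both genotypes (adjusted p = 0.0499 with sex as a covariate and 0.0468 without), as did edgeR without the 2 libraries of discordant sex (0.0482) or without WT 0 h male 2 (0.0486). At 3 h Ep300 differed from 0 h by 0.064 (SE 0.035, adjusted p = 0.381). Crebbp (12914, chr16:4081334-4213957), its paralog, had 60.7 ± 3.09, 66.2 ± 2.73 and 66.6 ± 5.19 CPM in WT and 65.3 ± 5.78, 67.7 ± 3.84 and 68.6 ± 3.86 in mutants at 0, 1 and 3 h. At 1 h it differed from 0 h by 0.089 (SE 0.038, adjusted p = 0.285). At 3 h the difference was 0.10, with an SE of 0.038 and an adjusted p of 0.144. In WT alone these were 0.12 (SE 0.044, unadjusted p = 0.0159) and 0.13 (SE 0.054, unadjusted p = 0.0283), and 4 and 5 of 6 libraries lay above every 0 h library. In mutants alone neither had an unadjusted p under 0.05. Gm37186 overlaps Crebbp, and Gm22067 and Gm23880 overlap Ep300.

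Sik1 had the widest spread of the 9 genes, and the largest difference of them from 0 h to 1 h and from 1 h to 3 h over both genotypes. Sik1 (17691, chr17:31844248-31855804, minus strand) encodes the inducible kinase that sends CRTCs back to the cytoplasm, and is itself a CREB target. In WT it ran from 7.70 to 16.7 CPM at 0 h (median 12.03), from 11.2 to 19.2 at 1 h (median 16.4) and from 7.91 to 11.8 at 3 h (median 10.03). In mutants it ran from 6.16 to 19.0 CPM at 0 h (median 13.8), from 16.4 to 20.9 at 1 h (median 18.5) and from 7.75 to 36.3 at 3 h (median 9.73). The 1 h libraries were high in both genotypes, with 11 of 12 above the 0 h mean, and the 0 h libraries ran from 6.16 to 19.0 CPM. At 3 h all WT libraries and 5 of 6 mutant libraries were at or below 15.5 CPM, the highest value among them. The sixth, mutant 3 h female 2, held 36.3 CPM, 1.74-fold the highest value in any other library, 20.9.

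The difference of Sik1 in WT between 1 h and 3 h had the smallest unadjusted p of the 9 genes in that comparison. Its log2 fold change was -0.65 (SE 0.14, unadjusted p = 0.000368), with all 6 libraries at 3 h below the 1 h mean and 5 below every 1 h library. With edgeR this was not called (adjusted p = 0.373, and 0.0% of 17388 genes were), whereas DESeq2 called it (adjusted p = 0.00309 with sex and 0.00380 without). The share of all genes that DESeq2 called is not given here. In mutants the same step was -0.40 (SE 0.36, adjusted p = 0.822), and -0.86 without mutant 3 h female 2. Over both genotypes it was -0.51 (SE 0.20, unadjusted p = 0.0161, adjusted p = 0.316). Without that 1 library it became -0.76 and was called (adjusted p = 0.00570), and without both libraries of discordant sex it was -0.80 (adjusted p = 0.00153). The earlier step, from 0 h to 1 h, was 0.43 (SE 0.20, adjusted p = 0.349), or 34.8% higher, over both genotypes, 0.35 (SE 0.20, unadjusted p = 0.101) in WT and 0.52 (SE 0.22, unadjusted p = 0.0384) in mutants. At 3 h Sik1 differed from 0 h by -0.075 (SE 0.20, adjusted p = 0.903), by -0.30 (SE 0.17) in WT and by 0.12 (SE 0.44) in mutants, where the value was -0.36 without mutant 3 h female 2. Over both genotypes it was -0.32 without that library and -0.0062 without WT 0 h male 1, and in WT it was -0.18 without WT 0 h male 1.

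The library highest in Sik1 also stood apart in other transcripts. It was the highest of its group in Fos at 43.9 CPM (others 6.42 to 11.6) and in Arc at 332.3 (others 73.1 to 125.2). It was the highest of all 36 in the sum of 4 thalamus markers, 122.2 CPM against 34.7 to 98.6 in the others, and of 4 oligodendrocyte markers, 9723 against 3993 to 8050. It was the lowest in the sum of 4 neuronal markers, 4200 against 4375 to 5669. The other library of discordant sex, WT 1 h male 1, was the lowest of its group in Sik1 at 11.2 CPM (others 12.6 to 19.2) and in Fos at 11.7 (others 19.2 to 34.4). The part of tissue composition or of the labels in these values was not tested.

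All 9 log2 fold changes from 0 h to 1 h over both genotypes were positive (plot of the differences in 36 libraries), with a median of 0.11, where 47.6% of all genes were positive. 7 of 9 had an unadjusted p under 0.05, all of them higher, against 12.7% of all genes in either direction and 7.65% in that direction, and the exceptions were Atf1 and Crtc1. This count was 5 to 8 over the alternatives, with 5 without WT 0 h female 3 and 6 without both libraries of discordant sex. The size was small for 8 of the 9, from 0.041 for Atf1 (0.014 without WT 1 h male 3) to 0.13 for Creb1. At 3 h, 7 of 9 were positive against 0 h with a median of 0.064, none was called (2.6% of all genes were, and DESeq2 with sex called 0 of the 9), and Crtc1, Crtc3 and Crebbp had an unadjusted p under 0.05 (16.0% of all genes), joined by Creb1 and Sik1 without mutant 3 h female 2. From 1 h to 3 h, 7 of 9 were negative with a median of -0.056, none was called (0.28% of all genes), and Creb1, Crem and Sik1 had an unadjusted p under 0.05 (10.7% of all genes). The 3 comparisons share libraries in pairs and are not independent of each other.

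**Figure D3:**
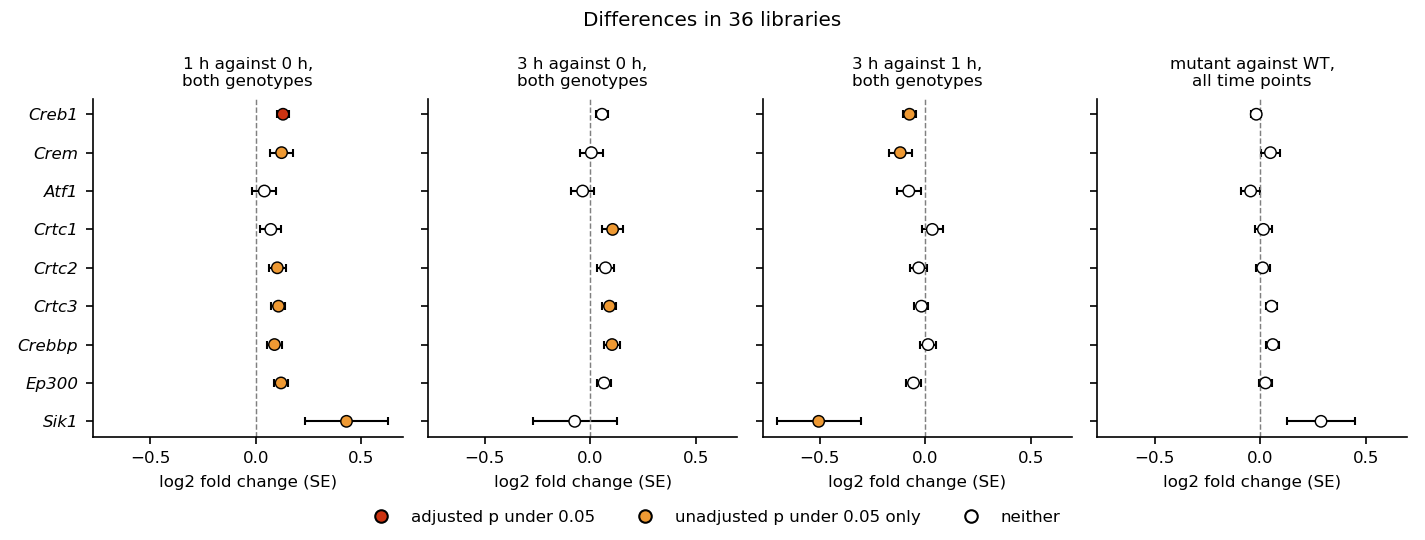
Log2 fold change and SE of each gene in the 4 fits over 36 libraries, red for an adjusted p under 0.05, orange for an unadjusted p under 0.05 alone and white for neither. At 1 h all 9 points lie above 0 and Creb1 is red, from 1 h to 3 h Sik1 lies lowest at -0.51, and between genotypes all points are white.

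Within WT alone, 3 of 9 genes had an unadjusted p under 0.05 from 0 h to 1 h (Creb1, Crtc2 and Crebbp, with 5.36% of all genes), 2 from 0 h to 3 h (Creb1 and Crebbp, 8.23%) and 2 from 1 h to 3 h (Sik1 and Crem, 7.41%). Creb1 at 3 h in WT was 0.099 (SE 0.045) above 0 h. Within mutants these counts were 4 (Creb1, Crem, Ep300 and Sik1, 11.1%), 1 (Crtc3, 8.57%) and 1 (Creb1, 8.04%), the last at -0.094 (SE 0.040). These counts moved when libraries were left out. In WT from 0 h to 1 h, 5 genes were under 0.05 without WT 1 h male 1 or without both libraries of discordant sex (Creb1, Crtc2, Crebbp, Ep300 and Sik1), and 5 without WT 0 h female 2. From 0 h to 3 h in WT the count was 0 without WT 0 h female 1, WT 3 h female 3, WT 3 h male 1 or WT 3 h male 2, and 1 without any of WT 0 h male 1, 2 or 3 or WT 3 h male 3. From 1 h to 3 h in WT it was 3 without both libraries of discordant sex, and 1 without WT 3 h female 1, male 1 or male 2. In mutants from 0 h to 1 h it was 2 without mutant 0 h male 2 or mutant 1 h female 1. From 0 h to 3 h in mutants it was 0 without mutant 0 h male 2 or female 3 or mutant 3 h male 2, female 1 or female 2, and 2 without mutant 3 h male 1. From 1 h to 3 h in mutants it was 0 without mutant 1 h male 1, male 3 or female 2 or mutant 3 h male 2 or male 3. No member was called by edgeR within a genotype. The share of all genes called there was 0.312% from 0 h to 1 h in mutants and 0.0% in the other 5. DESeq2 with sex called 1 member, Sik1 in WT from 1 h to 3 h, in these 6 comparisons.

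Between genotypes no member was called and none had an unadjusted p under 0.05 at any time point, with edgeR or with all 36 libraries in the additive fit. DESeq2 with sex called 0 of the 9 as well. Without both libraries of discordant sex, 1 gene was under 0.05 at 1 h (Atf1) and 1 at 3 h (Crem), and with single libraries left out the counts were 0 to 1 at each time point and 0 to 2 in the additive fit. The shares of all genes under an unadjusted p of 0.05 were 6.15% at 0 h, 8.61% at 1 h and 6.36% at 3 h, and the shares called were 0.0%, 0.0% and 0.0115%. Apart from Sik1, the differences lay between -0.043 (Crem) and 0.10 (Crebbp) at 0 h, between -0.11 (Atf1) and 0.056 (Crtc1) at 1 h, and between -0.062 (Creb1) and 0.13 (Crem) at 3 h. For Crebbp at 0 h, 5 of 6 mutant libraries lay above every WT library, and without the sixth, mutant 0 h male 1, the difference was 0.15 (unadjusted p = 0.0045, adjusted p = 0.412). The Crem difference at 0 h was 0.00034 without mutant 0 h male 2, that of Crtc1 at 1 h was 0.011 without WT 1 h male 1 and 0.092 without WT 1 h female 3, and that of Creb1 at 3 h was -0.041 without WT 3 h female 3. Sik1 was 0.074 (SE 0.26) higher in mutants at 0 h, 0.25 (SE 0.13, unadjusted p = 0.0773, adjusted p = 0.623) at 1 h, and the 1 h value was 0.16 without WT 1 h male 1. At 3 h it was 0.50 higher (SE 0.36), with an adjusted p of 0.860. All 6 mutant libraries at 1 h lay above the WT mean for Sik1 and 3 above every WT library. Without mutant 3 h female 2 the 3 h difference was 0.035, and the other 5 mutant libraries had 10.2 ± 3.19 CPM (SD, n = 5) against 9.94 ± 1.33 (n = 6) in WT. Over all time points, the largest genotype differences were Sik1 at 0.29 (SE 0.16, adjusted p = 0.409), Crebbp at 0.060 (SE 0.031, adjusted p = 0.351) and Crtc3 at 0.054 (SE 0.027, adjusted p = 0.337), with 1.3% of all genes called and 15.2% under an unadjusted p of 0.05. Without mutant 3 h female 2 the Sik1 value was 0.12.

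Whether training changed these genes differently in mutants was tested as an interaction over 24 libraries. None of the 9 had an unadjusted p under 0.05 for the step to 1 h (3.78% of all genes) or to 3 h (1.52%), and no gene of any kind was called (0.0% and 0.0%). DESeq2 with sex called 0 of the 9. Without WT 0 h male 1, Creb1 was under an unadjusted p of 0.05 for the step to 3 h. For Creb1 the mutant step minus the WT step was -0.043 (SE 0.061) to 1 h and -0.086 (SE 0.057, unadjusted p = 0.146) to 3 h. For Crem the difference to 3 h was 0.18 (SE 0.12, unadjusted p = 0.155). For Sik1 it was 0.17 (SE 0.30) to 1 h and 0.45 (SE 0.47) to 3 h, and the second value became -0.052 without mutant 3 h female 2. With single libraries left out, the step to 1 h differed by 0.025 (without mutant 0 h female 3) to 0.31 (without mutant 0 h male 1) for Sik1. For Creb1 it differed by -0.072 (without WT 0 h male 1) to -0.016 (without WT 1 h female 1).

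Across the 36 libraries the members varied largely apart from each other. Of the 36 pairs of genes, 28 had a positive Pearson r of log2 CPM, with a median of 0.16 and a range of -0.19 to 0.60. The highest was Crebbp with Ep300, the paralogous pair, at 0.60, and it was 0.55 after each group's mean was taken away. After that step the median over pairs was -0.0055 and 16 were positive. Sik1 and the CRTCs, its known substrates, had r of -0.15 for Crtc1, 0.02 for Crtc2 and 0.42 for Crtc3. All pairs share libraries and normalization, and genes are not replicates.

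The genes most like Sik1 over the 36 libraries included several immediate early genes (plot of Sik1 beside other genes). Of 18185 others, the highest r were Mcl1 (0.87), a survival gene of the Bcl2 family, the zinc finger factor Egr2 (0.86), the synaptic regulator Arc (0.85), the AP-1 subunit Fos (0.85) and the nuclear receptor Nr4a1 (0.84). Within groups these were 0.80 to 0.85, and without mutant 3 h female 2 they were 0.84 to 0.86. For Crem, the genes given here among those most like it were Ppp2r5a (0.61), Inhba (0.59), Serinc2 (0.58) and Pcdhgb5 (0.58). The r of Crem with Sik1 was 0.19, or -0.11 within groups and 0.39 without mutant 3 h female 2.

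**Figure D4:**
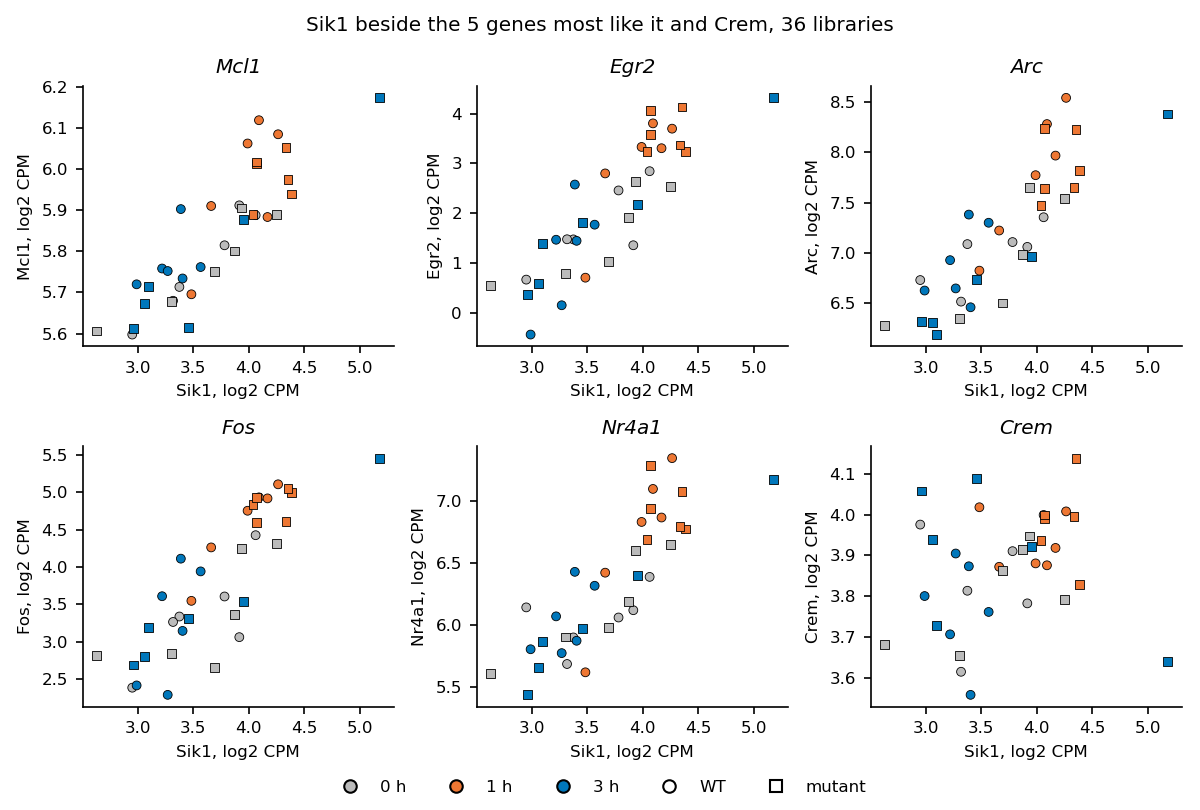
Log2 CPM of Sik1 against the 5 genes with the highest correlation and against Crem, 1 point per library, coloured by time with circles for WT and squares for mutant. The point at the far right is mutant 3 h female 2, which lies along the trend for Fos (r = 0.85) and low at the far right for Crem (r = 0.19, -0.11 within groups, and 0.39 without this library).

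Other genes of the pathway were counted from lists of known roles, which were chosen with earlier results of these data known. The paper had already described several of the CREB targets, such as Fosb and Npas4, as induced by training. The counts of listed genes beside the shares of all genes are therefore descriptions of the lists and not independent tests. Of 18 known CREB target genes, 11 rose at 1 h over both genotypes and none fell (1.28% of all genes were called), with 17 positive and a median log2 fold change of 0.55. Fosb, an AP-1 subunit, went from 9.66 ± 2.05 to 24.9 ± 4.16 CPM (SD, n = 12; log2 fold change 1.37, SE 0.13, adjusted p = 9.41e-08) and remained 0.73 (SE 0.13, adjusted p = 0.00246) above 0 h at 3 h. Gadd45b, a stress and DNA repair regulator, went from 9.92 ± 1.52 to 14.8 ± 1.46 CPM (0.58, SE 0.084, adjusted p = 0.000184). The nuclear receptor Nr4a2 rose by 0.56 (SE 0.090, adjusted p = 0.00118), the clock gene Per1 by 0.53 (SE 0.10) and the zinc finger factor Egr1 by 0.72 (SE 0.16). Fos (1.25, SE 0.29), Junb (0.76, SE 0.16), Npas4 (0.82, SE 0.19), Nr4a1 (0.73, SE 0.17), Arc (0.88, SE 0.22) and Nr4a3 (0.40, SE 0.10) were the others. The count of 11 fell to 6 without WT 1 h male 3 and to 7 without WT 1 h male 2, mutant 0 h male 3 or mutant 0 h female 3. In mutants alone 6 of these genes rose at 1 h (Fosb, Egr1, Nr4a2, Nr4a3, Per1 and Gadd45b), against 0.312% of all genes called. In WT 0 rose, where 10 had an unadjusted p under 0.05 (5.36% of all genes), and 2 rose (Fosb and Nr4a1) without WT 1 h male 1 and 1 (Npas4) without WT 0 h female 1. The genotype difference in the step to 1 h, tested as an interaction, was called for 0 of the 18 (0.0% of all genes). For 1 of them the unadjusted p was under 0.05 (3.78% of all genes). Within genotypes, DESeq2 with sex called 10 in mutants and 3 in WT at 1 h. With all 36 libraries in 1 fit, edgeR called 3 in mutants. From 1 h to 3 h, Fosb, Egr1 and Gadd45b fell, by 0.64, 0.73 and 0.46 on the log2 scale, where 0.28% of all genes were called. That count was 3 in all libraries, 11 without mutant 3 h female 2, 9 without WT 1 h male 1 and 12 without both, and 9 with DESeq2 with sex. It was 1 without WT 1 h male 3 or WT 3 h male 1. Shares of all genes given beside these counts are those of the main edgeR fits, and none is given for the alternatives. Calls at 1 h over both genotypes were lost in 33 of 43 alternatives for Nr4a3, 21 for Arc, 5 for Nr4a1, 4 for Fos and 1 for Npas4, and in none for Fosb, Junb, Egr1, Nr4a2, Per1 and Gadd45b.

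Among the 18 other kinases, phosphatase subunits and adaptors that set CRTC location, 1 rose at 1 h (1.28% of all genes were called) and 1 at 3 h (2.6%). The 1 h gene was Sik2, a relative of Sik1, at 18.1 ± 1.35 CPM at 0 h and 21.4 ± 1.97 at 1 h (SD, n = 12; 0.24, SE 0.052, adjusted p = 0.00920). In mutants alone it rose by 0.33 (SE 0.050, adjusted p = 0.0118), with all 6 libraries above the 0 h mean, a call lost in 1 of its 19 alternatives. In WT alone the difference was 0.15 (SE 0.081, unadjusted p = 0.0861, adjusted p = 0.926), or 0.095 without WT 0 h female 1. The mutant step minus the WT step was 0.18 (SE 0.091, unadjusted p = 0.0589), with an adjusted p of 0.999. The 3 h gene was Sik3, the remaining member of the kinase family, at 171.7 ± 15.4 CPM at 0 h and 191.9 ± 14.9 at 3 h (0.16, SE 0.040, adjusted p = 0.0248). That call was lost in 2 of its 43 alternatives, leaving out WT 0 h male 1 or mutant 0 h male 1.

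For the remaining lists the shares of all genes called were likewise 1.28% at 1 h and 2.6% at 3 h. Of 14 other CREB and ATF transcription factors, Atf3, an inducible stress factor, rose at 1 h from 0.839 ± 0.375 to 1.68 ± 0.467 CPM (SD, n = 12; 1.02, SE 0.19, adjusted p = 0.00544). Creb3l2 and Atf6, membrane-bound factors of the secretory pathway, rose at 3 h by 0.29 (SE 0.068, adjusted p = 0.0166) and 0.14 (SE 0.038, adjusted p = 0.0328), the second with its call lost in 12 of 43 alternatives. Atf5, a factor of the mitochondrial stress response, was the only gene of any of these lists called between genotypes over all time points (1.3% of all genes were), at 27.0 ± 3.76 CPM in mutants and 21.8 ± 2.45 in WT (SD, n = 18; 0.31, SE 0.059, adjusted p = 0.00409). All but 1 of the 18 mutants exceeded the WT mean. In the same fit all 4 choroid plexus markers were lower in mutants with an unadjusted p under 0.05, at mean sums at 0, 1 and 3 h of 559.7, 307.7 and 1453 CPM against 2441, 1454 and 2558 in WT. All 4 astrocyte markers were higher, 2 of them under an unadjusted p of 0.05, at 1389, 1388 and 1389 CPM against 1327, 1344 and 1262 in WT. The part of these in the Atf5 difference was not tested. Of 21 kinases of the CREB activating site and their subunits, none was called at 1 h over both genotypes by edgeR or by DESeq2 with sex (1 had an unadjusted p under 0.05). Without both libraries of discordant sex edgeR called 1 there, and in mutants alone DESeq2 with sex called 1 where edgeR called 0. At 3 h, Camkk1, which activates CaM kinases, rose by 0.17 (SE 0.046, adjusted p = 0.0326) and Rps6ka5 (MSK1), a CREB and histone kinase, fell by 0.15 in log2 (SE 0.041), with an adjusted p of 0.0350. These calls were lost in 11 and 14 of 43 alternatives, and leaving out WT 0 h female 1 ended both. Of 15 other acetyltransferases and partners of CREB, Taf4, a subunit of TFIID, rose at 1 h by 0.15 (SE 0.038, adjusted p = 0.0353), a call lost in 22 of 43 alternatives, and the acetyltransferase Kat6a had 0.097 (SE 0.033, adjusted p = 0.165).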

How the data were processed

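RNA of dorsal hippocampus was sequenced from poly-A libraries with paired-end reads. The authors aligned reads with RNA STAR 2.7.8a to mm10 and counted them per gene with featureCounts 2.0.1, per the labels and the study's methods. The deposited values are raw counts, 1 file per library, without normalization. The annotation, strand setting and treatment of multi-mapping reads were not given in the sources used here, so overlapping genes may share reads. Gene identifiers without a symbol (1904 of 27179) held 1.28% of counts and stayed in the library sizes. The 8 hippocampus samples of an earlier cohort were not analysed here. Replicates are separate mice.

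Counts were tested with edgeR 4.0.16 (limma 3.58.1, R 4.3.3) (quasi-likelihood test, robust dispersion), TMM scaling, filterByExpr with a minimum count of 10, the labelled sex as a covariate and Benjamini-Hochberg adjustment over all genes tested, called at an adjusted p under 0.05. Of 15 comparisons, 9 used their own 12 libraries, 4 all 36 with time, genotype and sex, and 2 were interactions in 24. The fits were tested on simulated data. Levels are TMM-scaled CPM, with a prior count of 2 on the log2 scale, and exon lengths come from GENCODE. DESeq2 1.42.0 was an alternative. Members and lists were chosen with earlier results of these data known. All 9 members are named. Of each list, called genes are named, and where fewer than 2 were called the list is filled to 2 by the smallest unadjusted p over both genotypes at 1 h or 3 h. The 5 genes most like Sik1 and Crem by Pearson r are also named. Of these, 1 gene is not reported here.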

Additional observations from a re-analysis of the deposited data

Results flagged for a closer look

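A library far from the other 5 of its group, by the gap to its nearest neighbour over the range of the group, was found in 5 of the 54 groups of 6 examined (9 genes in 6 groups). Chance marks about 1 group in 20. Sik1 in mutant 3 h female 2 was 36.3 CPM, where the others ran from 7.75 to 15.5. Crebbp in mutant 0 h male 1 was 54.3 CPM, where the others ran from 65.5 to 70.1, and it was the lowest Crebbp value of all 36 libraries. In WT 1 h male 3, Crebbp was 71.4 CPM (others 64.2 to 66.8) and Ep300 was 110.9 CPM (others 93.9 to 99.1), so both paralogs were high in the same mouse. Creb1 in WT 3 h female 3 was 75.5 CPM, where the others ran from 67.2 to 69.3.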

How the results depend on the processing

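Of 411 alternative counts of members called over the 15 comparisons, 403 gave the main count. From 0 h to 1 h over both genotypes the count was 1 and became 2 (Creb1 and Ep300) with DESeq2 with sex, with DESeq2 without a covariate and without the 2 libraries of discordant sex, and 1 to 2 when single libraries were left out. In WT from 1 h to 3 h it was 0 and became 1 (Sik1) with either DESeq2 fit. From 1 h to 3 h over both genotypes it was 0, became 1 (Sik1) without the 2 libraries of discordant sex, and was 0 to 1 when single libraries were left out. The cause of the difference between tools was not tested. Shares of all genes called are given for the main edgeR fits alone. Of 86 fold changes, 82 kept their direction in all alternatives run, and the others were Crem between genotypes at 0 h (-0.043, with -0.085 to 0.00034 over single libraries left out) and Sik1 in the following comparisons. In mutants from 0 h to 3 h Sik1 was 0.12, and -0.36 without the 2 libraries of discordant sex, with -0.36 to 0.30 over single libraries left out. Its mutant difference from WT at 0 h was 0.074, with -0.060 to 0.22 over single libraries left out, below 0 without WT 0 h male 3, mutant 0 h male 1 or mutant 0 h female 1. Its genotype difference in the step to 3 h was 0.45, and -0.052 without the 2 libraries of discordant sex, with -0.052 to 0.61 over single libraries left out. Replicate numbers recur in each group. Same-numbered libraries had a median r of 0.016 in their deviations over 90 pairs, with 19 above 0.1. Other-numbered libraries had a median r of -0.016 over 180 pairs, with 24 above 0.1. The numbers were not taken to pair the mice. With the replicate block, 1 member was still called from 0 h to 1 h over both genotypes and 0 in the other comparisons, and Sik2 in mutants at 1 h, called without the block, was not called with it (adjusted p 0.0523). The correlations of Sik1 and Crem without mutant 3 h female 2 were chosen after seeing the data. The lowest count of a member in a library was 382, and the effect of depth was not tested.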
